A study of Mus musculus with 22 samples.

Results

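Iqub, Axin1, Siglec15, Fam110a and Dnmt3l were chosen by their measured methylation: each holds a stretch of CpGs whose level in tumor-bearing PyMT glands was far below that in FVB controls. Every CpG position inside the gene or within 2 kb of any of its RefSeq transcription start sites (TSS) was taken if it was covered by at least 10 reads in all 22 samples. This gave 294 of the 1140639 positions covered in all samples: 26 in Iqub, 92 in Axin1, 50 in Siglec15, 120 in Fam110a and 6 in Dnmt3l. The 5 genes were among 27190 genes with at least 1 such position. DNA methylation was read by ERRBS, in which DNA is cut at CCGG sites, converted with bisulfite and sequenced, so that a methylated cytosine still reads as cytosine. The cases were female F1 mice heterozygous for the MMTV-PyMT transgene, from PyMT males crossed with FVB females, and the controls were age-matched FVB females without the transgene. The MMTV promoter drives the polyoma middle T antigen in mammary epithelium. The tissue was bulk tumor or bulk normal gland, which also holds fat, stroma, vessels and blood cells. PyMT glands with hyperplasia (n = 2) came from week 6, adenoma/MIN (n = 3) from week 8, early carcinoma (n = 3) from week 10 and late carcinoma (n = 2) from week 12, and FVB glands were taken at the same 4 ages (n = 3 each). Stage and age are the same variable in the PyMT samples and cannot be told apart. The paper describes 3 PyMT mice and 3 controls at each age and the removal of 2 outlier samples. PyMT week 6 replicate 3 and PyMT week 12 replicate 2 are not among the 22 samples. Ranges and spreads of the PyMT samples are therefore those of the samples that were kept. A sample held 1314077 to 1435757 positions at a mean coverage of 60.2 to 79.2 reads. One control, FVB week 8 replicate 2, had a median correlation with the other controls of 0.972, against 0.979 to 0.985 for the other 11.

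Axin1 is the scaffold on which the destruction complex of the Wnt pathway marks beta-catenin for degradation. Siglec15 is a sialic acid-binding receptor of osteoclasts and macrophages that signals through the adaptor Tyrobp. Dnmt3l is a member of the DNA methyltransferase family without catalytic activity that helps Dnmt3a and Dnmt3b to set methylation in germ cells. Iqub, a protein with IQ and ubiquitin-like domains, belongs to the radial spokes of motile cilia and sperm tails, and Fam110a is a centrosome-associated protein of the FAM110 family. CpG islands at active or poised promoters are usually unmethylated, whereas most CpGs in gene bodies are methylated. In breast tumors, focal gains at islands commonly occur beside losses elsewhere.

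A position was counted as losing if PyMT methylation minus FVB methylation, averaged over the 4 weeks, was -20 percentage points or lower. Losing positions at most 500 bp apart were joined, and the run with the most losing positions was taken as the losing interval of the gene. Of all positions covered in all samples, 4.59% met the threshold. The intervals held 55 of the 294 positions, and they were 39 to 1261 bp long. None of the positions of Iqub, Axin1, Siglec15 and Fam110a in them was within 2 kb of a TSS, whereas 4 of the 6 in Dnmt3l were, at 1956 to 1995 bp. The Iqub interval (mm10, chr6:24458203-24458241, 39 bp, 4 positions) was in intron 9, 56.8 kb from the curated TSS. The Axin1 interval (chr17:26188132-26188336, 205 bp, 8 positions) covered the end of coding exon 6, with 5 positions, and the start of intron 6, with 3 positions, 49.5 kb from the nearest curated TSS. The Siglec15 interval (155 bp, 5 positions) was in intron 1, 6.91 kb from the TSS. The Fam110a interval (chr2:151969547-151970807, 1261 bp, 32 positions) was in exon 2, the last exon, with 28 positions in coding and 4 in untranslated sequence, 3.22 kb from the nearest curated TSS. The Dnmt3l interval (chr10:78057291-78057434, 144 bp, 6 positions) held 5 positions in a coding exon, which is exon 12 of the longest curated transcript, and 1 in the intron after it. It lay 2.03 kb from the TSS of a short curated transcript.

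The reference sequence of 4 of these stretches is printed to show the measured CpGs at which the loss was seen. Each stretch is the plus strand of GRCm38.p6 (the build of mm10, from RefSeq) with 20 bases on either side, and capitals mark the CpGs measured in all samples. Other CpGs, as in Iqub and Fam110a, were not measured in all samples, and whether they lose methylation is not known here. For Fam110a the stretch with the largest losses is shown, which lies in coding sequence and reads antisense to the gene.
Iqub, chr6:24458183-24458261: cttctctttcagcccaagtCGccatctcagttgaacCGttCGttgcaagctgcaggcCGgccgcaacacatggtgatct
Axin1, chr17:26188112-26188356: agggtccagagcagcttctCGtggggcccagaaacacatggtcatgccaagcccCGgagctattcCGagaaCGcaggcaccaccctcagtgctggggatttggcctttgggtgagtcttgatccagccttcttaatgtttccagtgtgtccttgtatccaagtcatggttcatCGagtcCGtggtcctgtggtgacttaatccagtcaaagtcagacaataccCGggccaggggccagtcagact
Fam110a, chr2:151970120-151970328: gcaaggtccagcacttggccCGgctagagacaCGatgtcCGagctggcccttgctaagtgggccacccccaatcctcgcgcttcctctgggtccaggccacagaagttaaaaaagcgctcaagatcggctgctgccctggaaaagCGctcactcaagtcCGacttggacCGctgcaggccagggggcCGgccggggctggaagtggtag
Dnmt3l, chr10:78057271-78057454: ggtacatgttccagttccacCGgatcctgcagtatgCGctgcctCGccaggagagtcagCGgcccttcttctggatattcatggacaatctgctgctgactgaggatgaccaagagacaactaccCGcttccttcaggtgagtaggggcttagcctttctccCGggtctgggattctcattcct
In windows of 300 bases centred on these stretches, the Axin1, Dnmt3l and Iqub windows held 8, 7 and 7 CpGs, with observed over expected CpG ratios of 0.345, 0.293 and 0.461. The Fam110a window held 15 CpGs at a ratio of 0.506 and had the highest GC content of the 4, 63%. The median of 32851 RefSeq promoter windows of the same length was 7 CpGs and 52.7% GC. Repeats masked in the reference made up 61.7% of the Iqub window, 6% of the Dnmt3l window and none of the Axin1 and Fam110a windows. All 4 windows contained CCGG, the site cut by the ERRBS enzyme, so windows centred on measured CpGs tend to hold it by design. It was in 52.8% of the promoter windows, which were not chosen by coverage, and nothing is read from the comparison. Both strands were also searched for TTCNNNGAA, the core bound by STAT factors, for TGANTCA, bound by AP-1, and for GGAATG, bound by TEAD factors, which 8.3%, 7.81% and 14.7% of promoter windows held. The Axin1 window held TTCNNNGAA once, at chr17:26188174-26188182, where the letters TTCCGAGAA include a measured CpG. The Dnmt3l window held GGAATG once, on the minus strand outside the measured CpGs, and TGANTCA was in none of the 4 windows.

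The Axin1 interval had the largest difference of the 5. Methylation in FVB was 78.1%, 81.6% and 90.2% at week 6, 86.8%, 77.8% and 88.8% at week 8, 90.2%, 88.6% and 84.4% at week 10, and 88.7%, 93.8% and 92.7% at week 12. In PyMT it was 21.7% and 19.9% at week 6, 25%, 22.2% and 11.3% at week 8, 12.3%, 23.5% and 7.28% at week 10, and 14.1% and 24.9% at week 12. All PyMT samples lay below all FVB samples, the highest PyMT sample at 25% and the lowest FVB sample at 77.8%. The difference was already -62.54 points in hyperplasia and -72.22 points in late carcinoma (mean of the 4 weeks -68.27, PyMT 18.2% ± 6.4, SD, n = 10, FVB 86.8% ± 5.29, n = 12). Across its coding and intronic CpGs, single positions differed by -75.26 to -54.14 points. The CpG at chr17:26188166 was read on both strands and differed by -75.26 points on the plus strand and -67.69 on the minus strand. In these bulk samples, and in all values below, a change within cells and a change in the mix of cells cannot be told apart.

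The Siglec15 interval (chr18:78050453-78050607) was similar. FVB methylation was 74.6%, 70.1% and 79.6% at week 6, 63.3%, 80.1% and 74.9% at week 8, 83.2%, 75.3% and 81% at week 10, and 81.7%, 78.8% and 82.5% at week 12. PyMT methylation was 11.9% and 21.7% at week 6, 14.2%, 18.3% and 6.06% at week 8, 14%, 4.81% and 14.9% at week 10, and 14.4% and 14.6% at week 12. The groups did not overlap, and PyMT retained 17.5% of the FVB level (13.5% ± 5.05, n = 10, against 77.1% ± 5.84, n = 12). The mean difference was -63.24 points, and the 5 intronic positions ranged from -71.14 to -56.67 points.

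The Iqub interval showed the largest spread between stages. FVB methylation was 88.5%, 74.5% and 85.5% at week 6, 68.1%, 84.9% and 87.5% at week 8, 74%, 84.6% and 79.4% at week 10, and 88.3%, 79.3% and 85.5% at week 12. PyMT methylation was 33.1% and 37.9% in hyperplasia, 28.7%, 14.4% and 22.6% in adenoma/MIN, 14.2%, 23.8% and 23.2% in early carcinoma, and 5.65% and 11.7% in late carcinoma. Both hyperplasia samples were above all later PyMT samples, and both late carcinoma samples were below them. The difference from FVB was -47.27 points in hyperplasia, -58.27 in adenoma/MIN, -58.95 in early and -75.70 in late carcinoma. Over the 4 weeks the mean difference was -60.05 points (21.5% ± 10.1, n = 10, against 81.7% ± 6.58, n = 12). The 4 positions, all read on the minus strand at a mean coverage of 33 reads, differed by -64.95 to -56.56 points.

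In Fam110a the interval was longer and its FVB level intermediate. FVB methylation was 51.3%, 55.8% and 54.2% at week 6, 47.9%, 54.4% and 54.6% at week 8, 55.7%, 58.1% and 54.5% at week 10, and 52%, 51% and 60.3% at week 12. PyMT methylation was 13.2% and 18.9% at week 6, 15.5%, 24.1% and 9.03% at week 8, 7.72%, 15.4% and 16.6% at week 10, and 7.8% and 15.3% at week 12. PyMT samples again lay below all FVB samples, and the mean difference was -39.89 points (14.4% ± 5.17, n = 10, against 54.1% ± 3.31, n = 12). Along the exon the 32 positions fell into 5 groups separated by gaps without CpGs covered in all samples. The 4 positions at chr2:151970266-151970308 differed by -67.92 points and the 3 at chr2:151970140-151970159 by -64.22, and their FVB levels were 87.7% and 87.4%. Toward the 3' end of the gene the 3 positions at chr2:151969688-151969710 differed by -41.60 points and the last, at chr2:151969547, by -27.93. Toward its 5' end the 21 positions at chr2:151970553-151970807 differed by -31.40 points from an FVB level of 43.3%. PyMT levels of the 5 groups were 10.9% to 23.5%, whereas FVB levels were 38.6% to 87.7%. Groups with a higher FVB level had a larger difference, a value that contains the FVB level. Where a CpG was read on both strands (5 CpGs), the strands' differences were 3.80 points apart in the median and 9.22 at most.

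**Figure D1:**
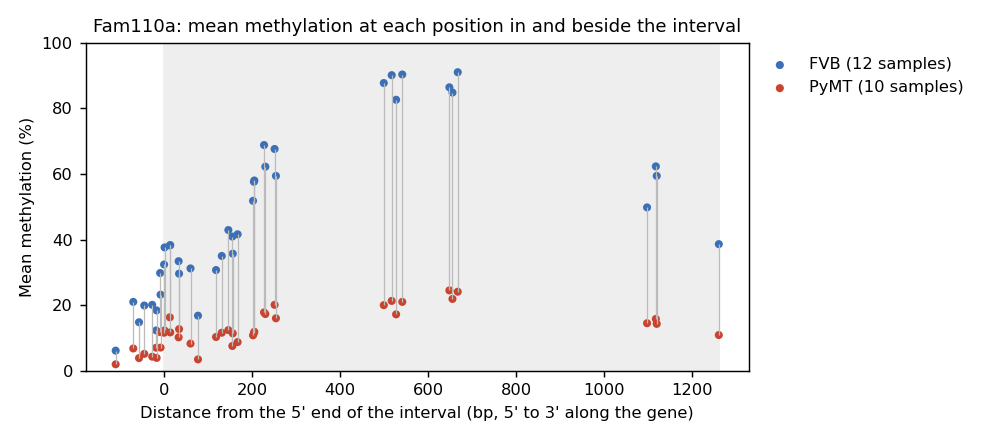
Mean methylation in percent (vertical axis) at each measured position in and beside the Fam110a interval, by distance in bp from its 5' end along the gene (horizontal axis), for 12 FVB samples (blue) and 10 PyMT samples (red). Gray lines join the means of a position and gray shading marks the interval. FVB means peak near 90% in the middle of the interval and PyMT means stay below 25% throughout.

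At the 5' edge of the Fam110a interval the differences declined gradually across the threshold, and the microRNA gene Mir1953 was the only other gene within 5 kb of any of the 5 intervals. The outermost position inside, chr2:151970807, differed by -21.86 points, and the next ones outside, chr2:151970815 and chr2:151970816, by -16.02 and -18.89 points. A single position nearer the 5' end, chr2:151973330, in untranslated exon sequence 64 bp from a TSS, differed by -22.11 points (24.7% in FVB, 2.78% in PyMT) and its neighbor chr2:151973319 by -19.66. In Iqub the nearest miss was chr6:24499571 at -19.04 points, and in Dnmt3l the position closest to the threshold inside was chr10:78057434 at -20.21. For Axin1, Iqub and Siglec15 no other position of the gene covered in all samples was closer than 1539 bp to the interval. The nearest such positions differed by 5.10 points in Axin1, by -2.14 and 4.61 in Iqub and by -3.55 and -9.10 in Siglec15. Positions covered in only some samples were not examined there.

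The Dnmt3l interval had the smallest difference and the highest methylation in PyMT. FVB methylation was 68.8%, 80.2% and 83.2% at week 6, 76.6%, 86.1% and 69.3% at week 8, 82.4%, 83.5% and 79% at week 10, and 80.9%, 79.4% and 76.9% at week 12. PyMT methylation was 45.7% and 52.7% at week 6, 57.9%, 41% and 52.2% at week 8, 51.3%, 45.1% and 54.2% at week 10, and 50.8% and 49.3% at week 12. No PyMT sample reached the FVB range, and the difference stayed between -31.46 and -26.96 points at all stages (50% ± 4.92, n = 10, against 78.9% ± 5.33, n = 12). PyMT kept 63.4% of the FVB level here and 17.5% to 26.5% in the other 4 intervals. Neighboring CpGs of the coding exon differed in size, with -41.10 points at chr10:78057291, -25.04 at chr10:78057307 and -39.63 at chr10:78057315, on the same strand, whereas chr10:78057397 in the same exon differed by -15.17.

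**Figure D2:**
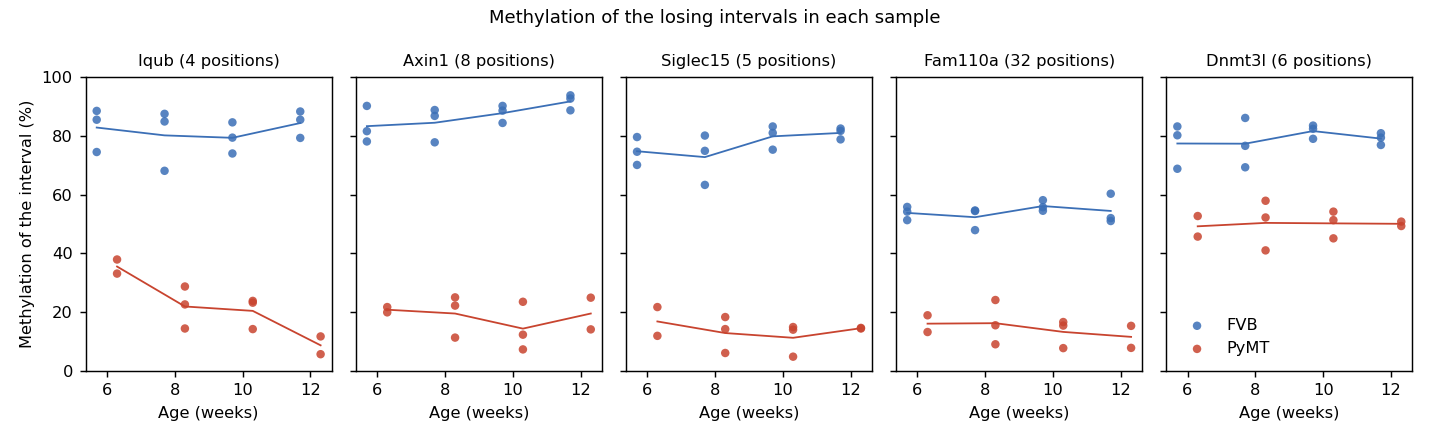
Methylation of each losing interval in percent (vertical axis) against age in weeks (horizontal axis), 1 point per sample, with lines through the means of FVB (blue, 3 samples per week) and PyMT (red, 2 or 3 samples per week). PyMT points lie below all FVB points in every panel, and the PyMT means change most with age in Iqub, from 35.5% to 8.65%.

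Outside the intervals the mean differences were much smaller. That they were smaller follows from how the intervals were drawn, around the losing positions of the same samples. The differences outside were -3.18 points in Iqub (22 positions), 0.11 in Axin1 (84), -0.85 in Siglec15 (45) and -1.70 in Fam110a (88). The Fam110a value was -1.47 without the single losing position chr2:151973330 (87 positions), which is left out of the other values for this gene outside its interval, except the counts of calls. With or without it, all PyMT samples were below all FVB samples there (highest PyMT sample 20.6% and lowest FVB sample 21% without it), while in Iqub, Axin1 and Siglec15 the groups overlapped. Many positions outside the intervals had little room to fall in points, as 77 in Axin1, 41 in Siglec15 and 67 in Fam110a had FVB levels under 50%, with mean FVB levels of 0.204%, 4.2% and 3.84%. The mean of the 67 in Fam110a was nonetheless lower in PyMT, at 1.18% ± 0.39 (n = 10) against 3.84% ± 0.59 (n = 12). All PyMT samples were below all FVB samples (highest PyMT sample 1.87%, lowest FVB sample 2.72%). The fall was not even along the gene. Beside the interval, from chr2:151970815 to chr2:151970917, all positions were lower, by -18.89 to -4.07 points. The position chr2:151973319 differed by -19.66 points, and those from chr2:151974008 to chr2:151974075 by -14.73 to -0.87. From chr2:151979961 to chr2:151980312 single positions differed by only -2.39 to 0.54 points. Over the positions under 50% in Axin1 and Siglec15 the PyMT means were 0.084% and 2.97%, and the groups overlapped. In Axin1 the positions under 50% were all within 221 bp of a TSS, the unmethylated island of the gene's start. Restricted to positions with an FVB level of at least 50%, the other positions differed by 2.65 points in Axin1 (7 positions), 2.99 in Siglec15 (4), 2.56 in Fam110a (20) and -3.18 in Iqub (22). This restriction was chosen after the data had been seen. The 7 positions in Axin1, all upstream of the interval and some of them before the nearest curated TSS, were 94.2% ± 2.08 (n = 10) methylated in PyMT and 91.5% ± 2.08 (n = 12) in FVB. The interval was at 18.2% and 86.8%.

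**Figure D3:**
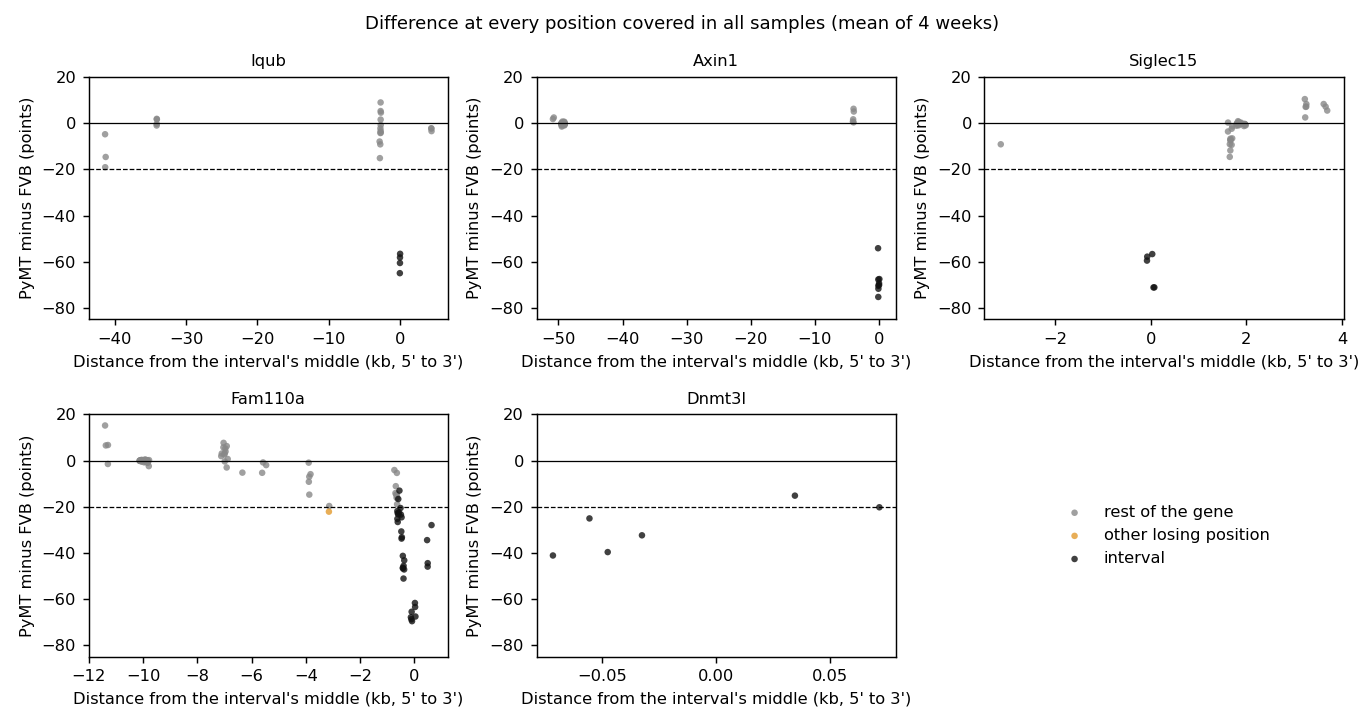
Difference of PyMT minus FVB methylation in percentage points (vertical axis, mean of 4 weeks) at every position covered in all samples, by distance in kb from the middle of the interval along the gene (horizontal axis). Black points belong to the interval, gray points to the rest of the gene and the orange point is the 1 losing position outside an interval, and the dashed line marks -20 points. Large negative differences cluster at 0 kb in Iqub, Axin1, Siglec15 and Fam110a, where each interval was drawn around them, and Dnmt3l has measured positions in its interval only.

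By stage, the interval of Axin1 differed by -62.54, -64.97, -73.33 and -72.22 points at weeks 6, 8, 10 and 12, and its other methylated positions by 2.46, 3.65, 2.23 and 2.27. For Siglec15 the values were -57.96, -59.88, -68.59 and -66.52 in the interval and -0.47, 2.94, 8.84 and 0.65 outside. For Fam110a they were -37.73, -36.10, -42.83 and -42.89 in the interval and 1.29, 5.01, 2.95 and 0.97 outside. The gap between interval and methylated rest was thus larger in both carcinoma stages than at either earlier stage in these 3 genes. The gap contains the contrast that chose the genes, and it was not tested. It also contains the FVB level of the interval, higher at weeks 10 and 12 than at weeks 6 and 8 by 5.83 (Axin1), 6.67 (Siglec15) and 2.23 points (Fam110a). The same later minus earlier difference in PyMT was -3.58, -1.90 and -3.57 points. In Iqub the rest differed by 0.32 points in hyperplasia and by -4.62, -4.32 and -4.10 later, and the PyMT samples were below all FVB samples of their week from week 8 on. The Iqub positions that differed most outside the interval were chr6:24499571 at -19.04 points, chr6:24461040 at -15.10 and chr6:24499504 at -14.60. For Dnmt3l no position outside the interval was covered in all samples. At 9 positions near its first TSS that were covered in at least 1 sample of each group, an alternative chosen after seeing the data, 3 had higher methylation in PyMT by 8.54 to 22.31 points, 1 was lower by 4.97 points and 5 had FVB levels under 10%.

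**Figure D4:**
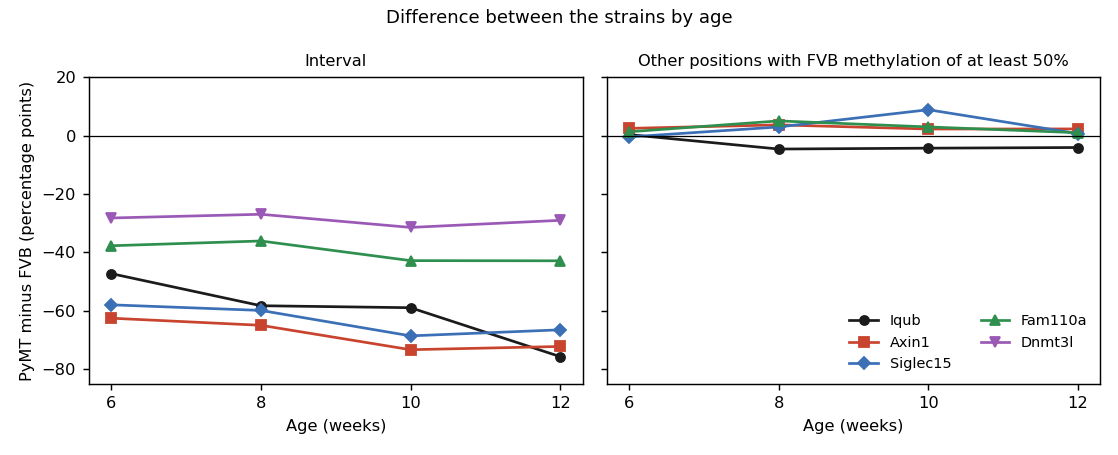
Difference of PyMT minus FVB methylation in percentage points (vertical axis) by age in weeks (horizontal axis) for the losing intervals (left) and for the other positions with FVB methylation of at least 50% (right), 1 line per gene. Interval differences run from -75.70 to -26.96 points, and the other methylated positions stay between -4.62 and 8.84 points. Dnmt3l has no positions in the right panel.

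Position by position, differentially methylated cytosines (DMCs) were called at each stage by a likelihood-ratio test of pooled methylated and unmethylated reads, with q-values over all 1140639 positions under 0.01 and a difference of at least 10 points. This test treats reads as independent and does not use the spread between mice. Hypomethylated DMCs numbered 57, 62, 72 and 72 of the 294 positions from hyperplasia to late carcinoma, where 6.01%, 7.1%, 8.42% and 8.53% of all positions were called. Since the genes were picked for these losses, nothing is read from these counts. The intervals held 49, 49, 53 and 54 of the calls among their 55 positions, and the other 239 positions held 8, 13, 19 and 18. Outside the intervals hypomethylated calls were in Fam110a (5 to 11 per stage), Iqub (2 to 6) and Siglec15 (1 to 3), and Axin1 had none in either direction. Hypermethylated calls were in Fam110a (up to 5), Siglec15 (up to 4) and Iqub (1, at week 6), where 2.62%, 3.2%, 4.39% and 4.44% of all positions were called. At all 4 stages 44 of the 55 interval positions were called, against 3.27% of all positions. In 43 of the 55 all 10 PyMT samples were below all 12 FVB samples, against 3 of the 239 other positions, all in Fam110a, and 2.08% of all positions. All interval positions of Iqub, Axin1 and Siglec15 were among the 43, with 23 of the 32 in Fam110a and 3 of the 6 in Dnmt3l.

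Within the PyMT samples, the interval of Iqub had a mean of 15.7% ± 7.78 (n = 5) in the carcinoma stages and 27.4% ± 9.2 (n = 5) in the earlier stages, a difference of -11.64 points. The later minus earlier difference was -3.58 points in Axin1, -1.90 in Siglec15, -3.57 in Fam110a and 0.22 in Dnmt3l, with overlapping ranges in all 5 genes. These values are descriptions, since the genes were chosen for low methylation in the same samples. Outside the intervals the same contrast was tested by a two-sided exact permutation test, for which the smallest possible p is 0.00794. Siglec15 had 10.3% ± 1.02 (n = 5) in the carcinoma stages and 8.8% ± 0.82 (n = 5) before (exact permutation p = 0.0476, adjusted over 4 genes 0.19). Iqub differed by -1.57 points (adjusted exact permutation p = 0.413), Axin1 by -0.06 (0.857) and Fam110a by 0.01 (0.952). No difference passed the threshold of 0.05.

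Age alone was examined in the FVB glands, a contrast that the choice of genes did not use, by comparing weeks 10 and 12 with weeks 6 and 8 (two-sided exact permutation test, n = 6 each, smallest possible p 0.00216). The Siglec15 interval had 80.4% ± 2.92 in the older and 73.8% ± 6.3 in the younger controls, a difference of 6.67 points (p = 0.0303 in the exact test, adjusted over 9 comparisons 0.136). In Axin1 the interval had 89.7% ± 3.36 and 83.9% ± 5.46 (5.83 points, adjusted exact p = 0.182). Intervals of Iqub, Fam110a and Dnmt3l differed by 0.37, 2.23 and 2.98 points, with adjusted exact p-values of 0.926, 0.599 and 0.639. None of the 5 intervals passed the threshold. Outside the intervals only Fam110a did, with 22.1% ± 0.29 in older and 21.3% ± 0.271 in younger controls, a difference of 0.75 points (adjusted exact p = 0.0195). Without each of the 3 FVB replicate numbers the differences were 0.49 to 0.91 points (adjusted exact p 0.129 to 0.257), where 4 samples against 4 allow no unadjusted p below 0.0286 and 1 such value does not pass the adjustment over 9. The call was lost with positions covered by at least 20 reads (0.46 points, adjusted exact p = 0.11).

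Read coverage, which the choice of genes did not use, was compared as the mean coverage of an interval divided by the sample's mean over all positions covered in all samples. The Fam110a interval was covered more deeply in PyMT. The PyMT values were 0.851 and 0.785 at week 6, 0.647, 0.88 and 0.857 at week 8, 0.875, 0.837 and 0.827 at week 10, and 0.912 and 0.926 at week 12. The FVB values were 0.823, 0.683 and 0.793 at week 6, 0.654, 0.656 and 0.679 at week 8, 0.699, 0.71 and 0.815 at week 10, and 0.776, 0.689 and 0.642 at week 12. The groups overlapped through PyMT week 8 replicate 1 (0.647) and PyMT week 6 replicate 2 (0.785). The means were 0.84 ± 0.0791 (n = 10) and 0.718 ± 0.0655 (n = 12), and the difference passed the exact permutation test within weeks (0.126, p = 0.00145, adjusted over 9 comparisons 0.013). Without FVB replicate 1 or FVB replicate 2 at each week the call was lost (differences of 0.136 and 0.109, adjusted exact p 0.0625 and 0.122). The rest of Fam110a had 0.977 in PyMT and 0.973 in FVB (adjusted exact p = 0.97). Relative coverage of the other 4 intervals was also higher in PyMT by 0.0557 to 0.0968, with no difference past the threshold (adjusted exact p 0.266 to 0.591).

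**Figure D5:**
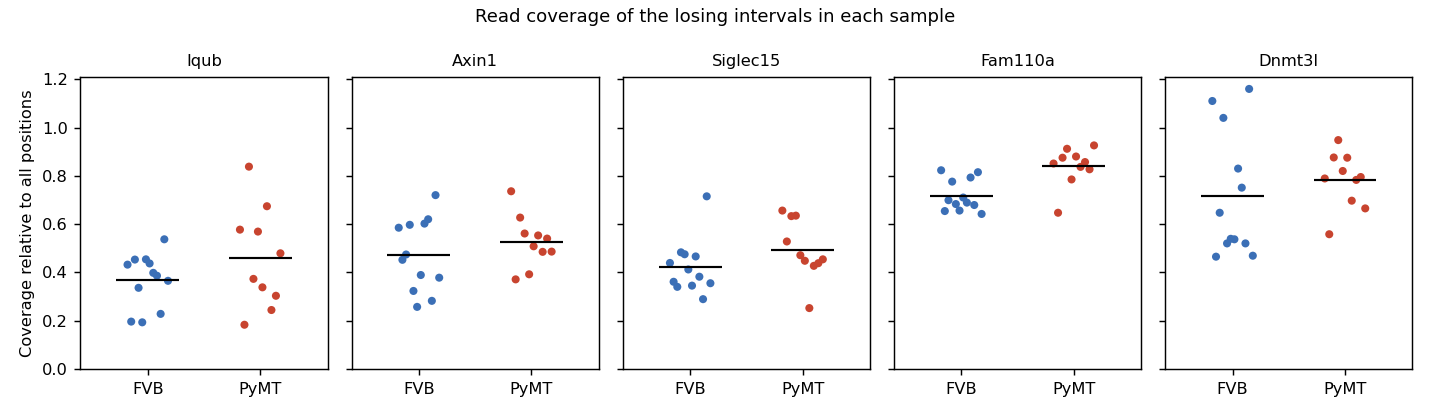
Mean read coverage of each losing interval relative to the sample's mean over all positions covered in all samples (vertical axis, ratio, from 0), 1 point per sample, for 12 FVB (blue) and 10 PyMT samples (red), with bars at the means. The means of Fam110a are 0.718 and 0.84, and the PyMT and FVB points of the other 4 genes overlap widely.

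Related genes were compared over the same unit, the mean of all positions in the gene and within 2 kb of its TSS, by an exact permutation test within weeks over all 22203 genes with at least 5 positions (smallest possible p 2.5e-05, called at a q-value under 0.05). PyMT was lower in 36.5% and higher in 18.7% of all genes. This unit averages the interval of a member with its other measured positions. Dnmt3l, measured in its interval only, differed by -28.92 points and ranked 144th from the largest loss, Iqub by -11.93 (1194th), Fam110a by -11.88 (1201st), Siglec15 by -7.09 (2544th) and Axin1 by -5.83 (3096th).

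Of 64 related genes tested, none of them a member, 30 were lower and 9 higher, with a median difference of -0.36 points against -0.11 over all genes. Among 24 genes of the Wnt destruction complex and its partners, 10 fell and 4 rose. The largest changes were in Apc2, an Apc homolog of neurons, by -11.98 points, Rnf43, a ubiquitin ligase that removes Wnt receptors, by -11.79, and Btrc, the ubiquitin ligase adaptor that binds phosphorylated beta-catenin, by -10.57. The coreceptor Lrp5 fell by 1.98 points, while Axin2, the paralog of Axin1 and a Wnt target gene, rose by 1.60 points (16.4% ± 0.247 against 14.8% ± 0.297, q = 0.000106 in the exact permutation test). Of the DNA methylation genes 5 of 14 were lower and 4 higher. Dnmt1, the maintenance methyltransferase, fell by 3.62 points, Uhrf1, which recruits it, fell by 2.58 and the dioxygenase Tet2 fell by 1.72, while Uhrf2 rose by 3.72 points. Within 2 kb of the TSS alone, several of these differences did not pass or turned in sign. Dnmt1 was higher by 0.34 points (q = 0.002 in the exact permutation test), and Lrp5 and Tet2, at 0.01 and 0.04 points, and Btrc and Uhrf1, at -0.02 and -0.22, did not pass. The partners of Dnmt3l were at 0.03 points for Dnmt3a, which did not pass the test, and at 0.44 points for Dnmt3b, which did (adjusted exact permutation p = 0.802 and 0.00935).

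Among Siglec receptors and their adaptors 5 of 6 tested genes were lower and none higher (median -4.43 points). Siglece, an inhibitory receptor of neutrophils and macrophages, differed by -11.87 points, the B-cell receptor Cd22 by -5.94 and the macrophage receptor Siglec1 by -3.86, and the myelin-associated glycoprotein gene Mag fell from 62.8% to 57.7%. Tyrobp, the adaptor of Siglec15, had no position covered in all samples. Of the IQ motif and radial spoke genes 9 of 18 were lower and none higher (median -1.13 points), led by the radial spoke gene Rsph1 at -15.56 points, with Iqcm at -7.58, Iqca1l at -6.62 and Iqcd at -6.51. The other measured FAM110 genes differed by less than 1 point, Fam110b by 0.46 and Fam110c by -0.46, both past the threshold. The calls of Siglec1 and Fam110b were near it: without FVB week 8 replicate 2 they were lost (-3.43 points, adjusted exact permutation p = 0.107, and 0.40 points, 0.0939).

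Promoters of cell type markers were compared between the groups as well. Over promoters, 19.7% of 18164 genes were lower and 18.2% higher in PyMT. All 8 tested of 9 epithelial marker genes were lower, with Cldn4 at -28.86 points and Krt18 at -15.80. The others differed by only -2.79 to -0.48 points, from low FVB levels of 0.957% to 4.18%. The mean promoter methylation of the 8 was 3.74% to 5.62% in PyMT samples and 9.71% to 12.8% in FVB samples. Cldn4 and Krt18 made up most of this difference. Of 3 adipocyte markers tested 1 was lower (Lep, -14.31 points) and 1 higher (Pparg, 1.12), and Lipe, at 1.19 points, did not pass. The list means were 18.2% to 26.6% in PyMT and 24.8% to 29.2% in FVB. Their lower level in PyMT came from Lep alone. Of 2 leukocyte markers 1 was lower and 1 higher (26.4% to 39.7% against 35.2% to 40.2%), and the 1 endothelial marker tested did not pass (0.529% to 1.7% against 0.886% to 2.15%). The part of these markers in the losses of the 5 genes was not tested.

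The promoters whose values over the 22 samples were closest to an interval, as the root mean square distance after subtracting each one's FVB mean, were found among genes more than 100 kb away. For Iqub, Axin1 and Siglec15 the same promoters came first, Cldn14, a tight junction claudin, and the overlapping 2410003I16Rik, which share the same 6 positions (23.3% in PyMT and 79.6% in FVB, distances of 7.83, 10.1 and 6.98 points), followed by Gm52734 (9.51, 10.2 and 7.6 points). The intervals of Axin1 and Siglec15 were 7.66 points apart, and those of Iqub and Siglec15 8.6. For Fam110a they were Klhdc7a (3.93 points), Gm28609 (4.39) and Sec16b (4.65), with PyMT minus FVB differences of -40.32, -40.40 and -40.25 points. For Dnmt3l they were Ly6g6c (5.01), Gm36023 (5.11) and Mpig6b (5.13), at -28.23, -26.80 and -28.96 points. The distance weighs the size of the difference, so these promoters are those with a like loss in these samples, and no test was made of it.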

How the data were processed

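ERRBS libraries of mammary tissue from 10 PyMT and 12 FVB mice were grouped by the strain and week in their labels. The authors aligned reads to mm10 with Bismark and deposited, per sample, the coverage as a count of reads at each CpG cytosine with at least 10 reads, strands separate, without normalization. The deposited files also give the percent of methylated and of unmethylated calls. Methylated reads were recovered as coverage times percent, rounded. The value of a gene or interval was the unweighted mean percent over its positions covered in all 22 samples, and differences were taken within week and averaged over 4 weeks. Replicates were taken to be separate mice, as the methods state.

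The members and lists were chosen with earlier results of these data known, so PyMT against FVB in the members was described and not tested. DMCs came from a likelihood-ratio test per position with Benjamini-Hochberg q-values (under 0.01, at least 10 points). Genes were tested by two-sided exact permutation within weeks (40000 arrangements) with Benjamini-Hochberg adjustment. Named related genes were those called, up to 4 per list with the largest absolute difference. Likeness was ranked for the 3 closest promoters with at least 5 positions. Axin2, Dnmt3a, Dnmt3b, Cldn4, Krt18, Lep, Pparg and Lipe were named after their values were seen. The tests were run on simulated reads first. Samples sharing a replicate number deviated from their group means with correlations of -0.04 to 0.03 (10 pairs), against -0.04 to 0.06 for other pairs. No pairing by number was seen in these values, and groups of 2 or 3 samples limit this check. Other settings tried were merged strands, coverage of 20 reads or more, weighting by coverage, loss thresholds of 10 and 30 points, joining gaps of 100 and 1000 bp, a difference of 25 points, positions covered within a stage, other gene windows and minimums, the replicate block, and leaving out each replicate number. Intervals were kept fixed when samples were left out. Genes came from RefSeq GRCm38.p6. Statistics used SciPy 1.17.1 and NumPy 2.4.6 under Python 3.11.15, tables pandas 2.3.3 and plots matplotlib 3.10.9. Gene expression was not analysed here.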

Additional observations from a re-analysis of the deposited data

How the results depend on the processing

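The losses of the 5 intervals kept their direction under every alternative computed for them. At a coverage minimum of 20 Iqub had no interval and no value, since each of its interval positions had fewer reads in some sample. Coverage minimum, merged strands, loss threshold and joining gap redrew the intervals from losing positions, so under these settings the direction was set by the definition. Weighting by coverage, the replicate block and the leave-outs kept the intervals drawn from all 22 samples. Those intervals were chosen for their losses in the same samples, so the direction was largely set under these settings too. Leaving out each replicate number gave -61.24 to -58.65 points in Iqub, -69.52 to -67.15 in Axin1, -64.35 to -62.04 in Siglec15, -41.85 to -37.46 in Fam110a and -29.80 to -27.20 in Dnmt3l. Without FVB week 8 replicate 2, the control that correlated least with the others, they were -59.46, -69.11, -62.33, -39.63 and -27.83 points. The Fam110a interval depended on how it was drawn, with -31.40 points at a coverage minimum of 20 and with a joining gap of 100 bp (21 positions), -34.59 weighted by coverage, -34.68 at a loss threshold of 10 points (40 positions) and -49.18 at 30 points (21 positions). The small differences outside the intervals, taken without the 1 other losing position of Fam110a, were less stable. At a coverage minimum of 20 they were -6.58 in Iqub, -0.01 in Axin1 and 0.21 in Siglec15; weighted by coverage, -4.87 in Iqub, -0.12 in Axin1 and -2.46 in Fam110a; at a loss threshold of 10 points, -1.12 in Iqub, 0.11 in Siglec15 and 0.23 in Fam110a; and at 30 points, -3.97 in Fam110a. At positions with FVB methylation of at least 50% they were 2.65 in Axin1, 2.99 in Siglec15 and 2.56 in Fam110a. Hypomethylated DMCs of the genes fell to 40 at week 8 with a coverage minimum of 20 and to 47 at week 12 with a difference of 25 points. Within 2 kb of a TSS only, 11 related genes and 3570 of all genes were lower, and Dnmt1 (0.34), Fam110b (-0.11), Lrp5 (0.01) and Tet2 (0.04 points) turned in sign.

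The age difference of the FVB samples outside the Fam110a interval was no longer past the threshold at a coverage minimum of 20 (0.46 points), at loss thresholds of 10 and 30 points (0.80 and 1.32) or without a replicate number (0.49 to 0.91, in a design too small to pass). Differences under the threshold that turned in sign were the FVB age differences outside the intervals of Axin1 (-0.05 at a coverage minimum of 20) and Siglec15 (-0.19 at a loss threshold of 10 points), the late minus early PyMT difference outside the Fam110a interval (-0.31 at a coverage minimum of 20 and -0.52 at a loss threshold of 30 points), and its relative coverage (0.00126 and 0.00894 under the same settings). Without each replicate number in turn, FVB age differences were -0.85 to 2.57 points in the Iqub interval and -0.62 to 1.32 (Iqub), -0.14 to 0.24 (Axin1) and -0.25 to 1.86 (Siglec15) outside the intervals, and the late minus early PyMT difference outside the Fam110a interval was -0.11 to 0.22. Relative coverage differed by 0.109 to 0.136 in the Fam110a interval and by -0.0193 to 0.0157 in Fam110a, -0.0698 to 0.0373 in Iqub, -0.00485 to 0.0493 in Axin1 and 0.0501 to 0.112 in Siglec15 outside the intervals. The last passed the threshold without FVB replicate 3 (adjusted exact p = 0.0425). The cause of these changes was not tested.

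Same-numbered samples showed no pairing in the data. With the replicate block the intervals differed by -60.35 (Iqub), -67.15 (Axin1), -62.91 (Siglec15), -40.26 (Fam110a) and -28.16 points (Dnmt3l). The block left 28 related genes lower and 7 higher, against 30 and 9, and 50, 62, 72 and 66 hypomethylated DMCs by stage. Of the named related genes, Siglec1 and Fam110b were no longer called under it (adjusted exact p = 0.066 and 0.0721). Of 620 values under alternatives, 548 kept their direction and their side of the threshold, or for values without a test and counts moved by less than the limit set for them. The 2 PyMT samples each at weeks 6 and 12, the 4 to 8 positions of the shorter intervals and coverage as low as 13 reads limit the precision of single stages and positions, and intervals without covered CpGs around them leave their true edges unknown.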
